A study of Homo sapiens with 36 samples.

Results

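The 46 genes described here encode nucleolar proteins that build ribosomes, and they were taken by name from the 19014 genes of a table of normalized counts. They comprise 3 core subunits of RNA polymerase I, 6 proteins of small nucleolar ribonucleoprotein particles (snoRNPs) including a chaperone, 5 abundant nucleolar proteins and regulators, 14 assembly factors of the small (40S) subunit and 18 of the large (60S) subunit. All 46 passed the filter on low values, as did 15711 genes in all.

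The cells were H446, a line grown from a human small cell lung cancer of the subtype marked by the neural transcription factor NEUROD1. In the 3 knockout clones (12, 15 and 2-1) NEUROD1 had been disrupted with 1 guide RNA, numbered 297 in the labels, and the 3 control clones (3, 10 and 13) carried a non-targeting guide RNA. Every clone was kept for 24 h with 1 µM JQ1, a compound that keeps BET proteins off acetylated chromatin, or with the solvent DMSO, with 3 poly(A) RNA libraries per clone and treatment. A clone stands for a single edited cell's offspring, so the clone was the unit of replication and the 4 groups held 3 clones each: knockout with JQ1 (8 libraries after 1 of clone 12 was left out), knockout with DMSO, control with JQ1 and control with DMSO (9 libraries each).

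In the nucleolus RNA polymerase I transcribes ribosomal RNA as a long precursor. Box C/D snoRNPs methylate it and box H/ACA snoRNPs convert uridines to pseudouridine, while assembly factors fold and cut it into the small and large subunits. The genes of these proteins are classical targets of MYC, which binds the E-box CACGTG, and are often described as a block that moves with growth.

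The 35 libraries used held 13282337 to 18890506 whole reads, and the library left out, knockout clone 12 with JQ1 replicate 1, held 31825795. That library stood apart by lung and blood transcripts: its 6 lung epithelium markers in the table summed to 68041 normalized counts, against at most 189.2 in the others, and its 4 blood markers to 17100, against at most 48.22. NEUROD1 had at most 10.21 normalized counts in knockout libraries, against at least 5134 in control libraries. HEXIM1, a gene that BET inhibitors raise, had a log2 fold change with JQ1 of 1.96 in knockout clones and 2.22 in control clones. MYC also rose with JQ1, by a log2 fold change of 1.66 ± 0.13 (SE) in knockout clones (limma adjusted p = 2.74e-05) and 1.08 ± 0.13 in control clones (adjusted p = 0.000213). Of 24 proliferation genes, 5 rose and 12 fell with JQ1 in knockout clones (20.8% and 50%), where all genes tested had 26.3% and 30.2%. In control clones 9 rose and 12 fell (37.5% and 50%), where all genes tested had 25.3% and 27.4%. The 10 neuroendocrine markers summed to 2283 to 5102 normalized counts in knockout libraries and 27271 to 37577 in control libraries, and the 7 stroma and endothelium markers in the table to 7975 to 12706 with JQ1 and 25585 to 55031 with DMSO in knockout libraries, against 2302 to 6322 and 7294 to 17626 in control libraries. The part of these differences in the results below was not tested.

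Per unit of gene length, which allows genes to be compared, the members ranged from 16.47 FPKM (SURF6) to 2234 FPKM (NPM1) in control clones with DMSO, with a median of 60.59. NPM1, the nucleolar chaperone nucleophosmin, averaged 2205 ± 584 FPKM in knockout clones and 2234 ± 165 FPKM in control clones with DMSO (SD, n = 3 each). NCL, the rRNA-binding protein nucleolin, averaged 938 ± 170 FPKM in knockout clones and 1288 ± 355 FPKM in control clones. FBL, the box C/D methyltransferase fibrillarin, followed with 332 ± 4.26 FPKM in knockout clones and 448 ± 43.9 FPKM in control clones. Every one of the 46 reached 10 FPKM in the control clones with DMSO. In GENCODE 29, 21 members overlap a gene on the opposite strand, among them POLR1C, NOP14, DDX10, TSR1, NOB1, GNL3, MRTO4, WDR12 and WDR74, and 4 (NOP2, RRS1, WDR74 and PPAN) overlap a coding gene on the same strand. The use of strand in counting is not stated, so the counts of these members may include reads of the other gene. In bulk RNA, fewer cells with a transcript and less of it per cell cannot be told apart.

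**Figure D1:**
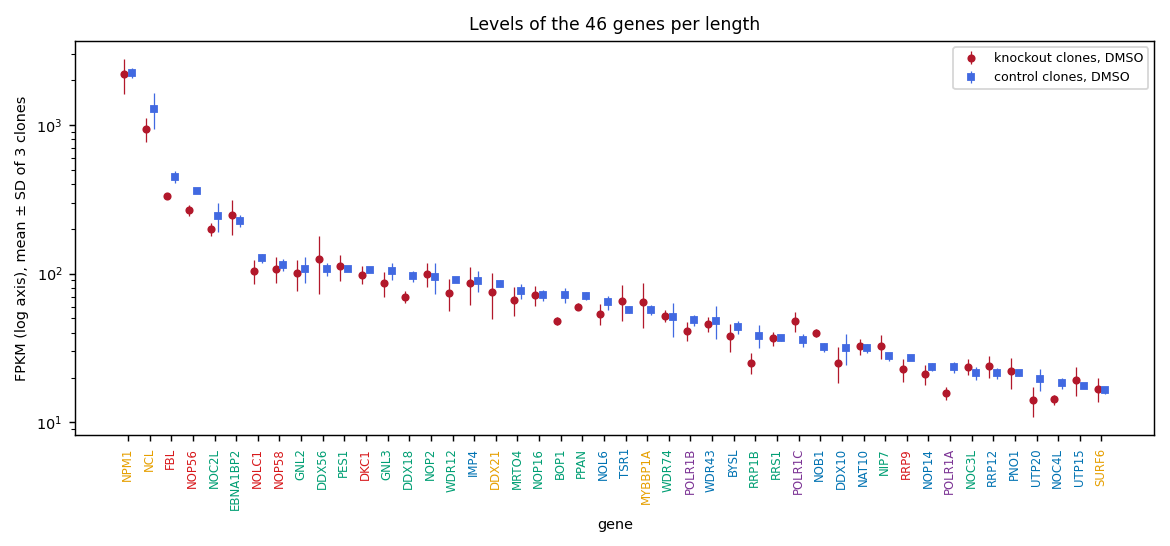
Level per length (FPKM, log axis) of each of the 46 genes with DMSO, as the mean of 3 knockout clones (red circles) and of 3 control clones (blue squares), with error bars of 1 SD over clones; gene names are coloured by role (purple RNA polymerase I, red snoRNP, orange nucleolar, blue 40S, green 60S). The control means run from 2234 FPKM for NPM1 to 16.47 FPKM for SURF6.

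With JQ1 the set split in both directions. In knockout clones 14 of the 46 members rose and 14 fell at an adjusted p under 0.05, where 56.5% of all genes tested were called (26.3% higher and 30.2% lower). In control clones 13 rose and 20 fell, where 52.7% of all genes were called (25.3% higher and 27.4% lower). The members' median log2 fold change with JQ1 was -0.08 in knockout clones and -0.11 in control clones, and that of all genes tested was -0.05 in knockout clones and -0.01 in control clones. The members called were 60.9% of the 46 in knockout clones, close to the share of all genes, and 71.7% in control clones, where the share of falls (43.5%) was above that of all genes. All genes tested include genes of low counts. With a mean of at least 50 normalized counts, 62.5% of genes were called in knockout clones (31.7% higher and 30.8% lower). In control clones 59.2% of such genes were called (29.5% higher and 29.6% lower). With the library of clone 12 put back, 10 rose and 14 fell in knockout clones (24% and 25.8% of all genes), and 10 rose and 18 fell in control clones (23.1% and 25% of all genes). Without pairing the treatments by clone, 1 member passed in knockout clones, where 2.82% of all genes did, and 11 in control clones, where 20% of all genes did.

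The direction of a member was largely shared between the genotypes. Of the 46, 12 rose in both genotypes (18.1% of all genes did) and 14 fell in both (20.4% of all genes), while 0 were called in opposite directions (0.885% of all genes). These 26 shared calls were 92.9% of the calls in knockout clones and 78.8% of those in control clones. Of all genes, 2845 rose in both and 3199 fell in both, out of 8882 called in knockout clones and 8273 in control clones. Among the members called in 1 genotype, POLR1A and RRP9 were called in knockout clones, and DDX18, DDX21, FBL, IMP4, NOC2L, NOP16 and UTP20 in control clones. Across the 46 members the log2 fold changes of the genotypes had a Pearson r of 0.947, where all genes tested had 0.745. This r is across genes, which are not independent replicates, and the genotypes share no library. All 46 members reached 10 FPKM in control clones with DMSO, whereas all genes tested include genes of low counts. The r values are therefore not of like sets of genes.

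**Figure D2:**
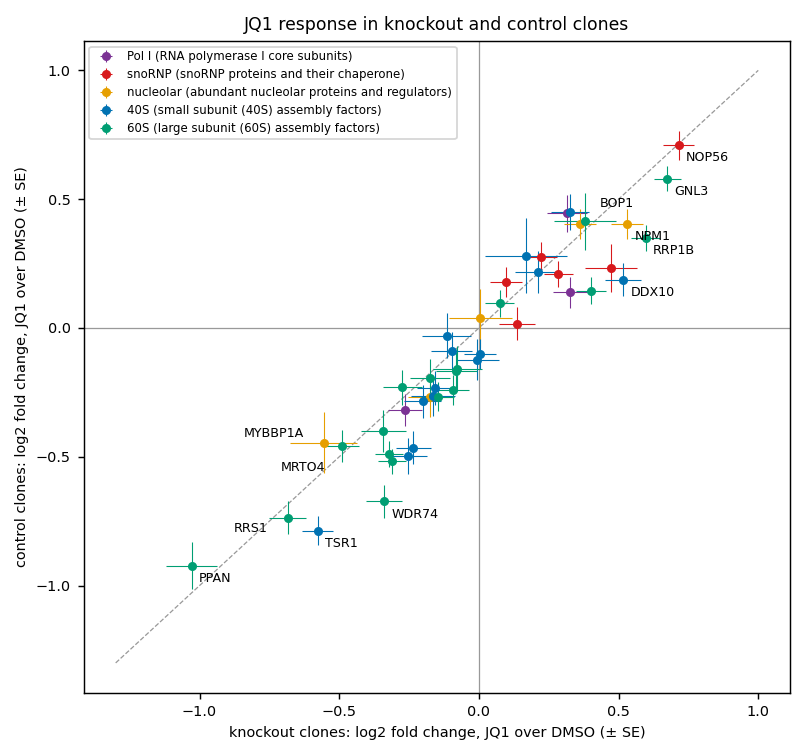
Log2 fold change with JQ1 over DMSO in knockout clones (x axis) and control clones (y axis) for the 46 members, with standard errors from limma; colours give the role and the dashed line marks equal change. Points spread along the line from PPAN at -1.03 and -0.92 to NOP56 at 0.72 and 0.71.

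Seen clone by clone, 33 members had a JQ1 difference of 1 sign in all 6 clones, 15 of them higher and 18 lower, where 53.1% of all genes had 1 sign (25.3% higher and 27.7% lower). The 13 members with mixed signs included DKC1, the pseudouridine synthase of box H/ACA snoRNPs, and SURF6, a nucleolar matrix protein. The median response of the 46 members was -0.23 in knockout clone 12, -0.06 in clone 15 and 0.16 in clone 2-1, against -0.12, -0.13 and -0.10 in control clones 3, 10 and 13. Thus the knockout clones differed among themselves more than the control clones did, and without clone 12 the members' median in knockout clones turned to 0.03. Across the members, responses of pairs of knockout clones had an r of 0.872 to 0.924 and those of pairs of control clones 0.974 to 0.98.

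**Figure D3:**
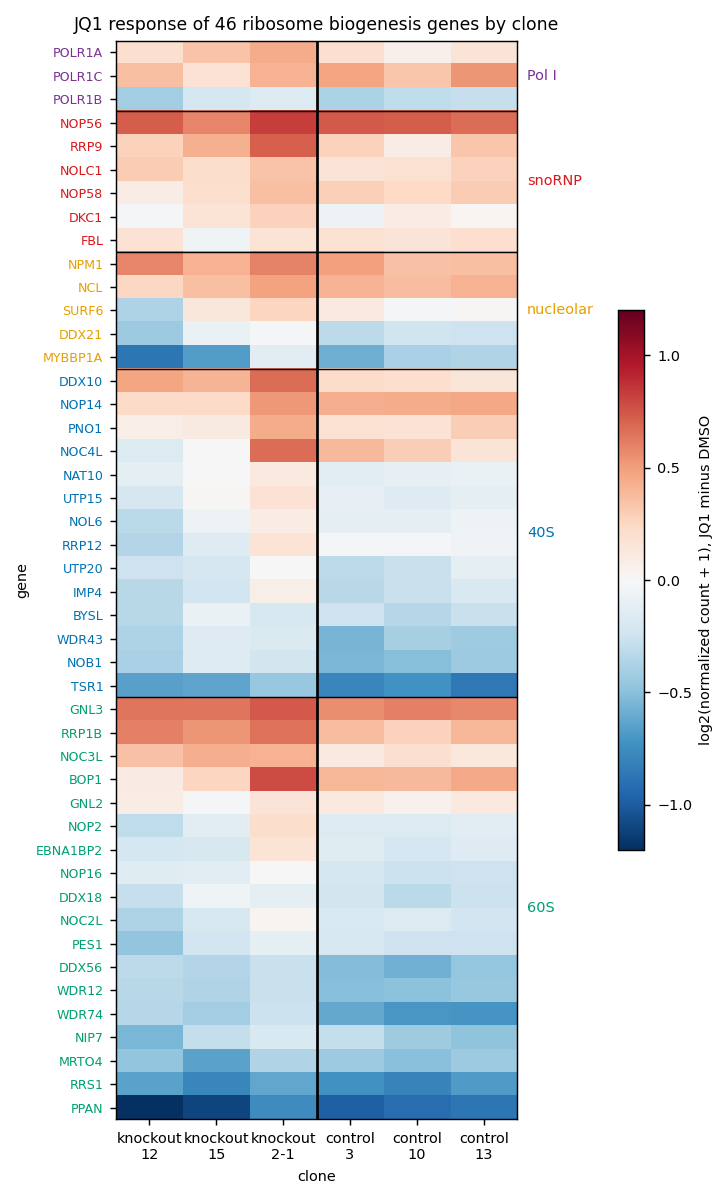
JQ1 minus DMSO difference in log2(normalized count + 1) of each of the 46 members (rows, by role) in each clone (columns, knockout left of control), from blue (lower with JQ1) to red (higher). Rows keep their colour across clones for 33 members, and clone 2-1 is the reddest column with a median of 0.16.

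Of the RNA polymerase I subunits, POLR1C, which this enzyme shares with RNA polymerase III, rose in both genotypes and POLR1B, the second-largest subunit, fell in both. POLR1C had log2 fold changes of 0.32 ± 0.07 in knockout clones and 0.45 ± 0.07 in control clones (SE, limma adjusted p = 0.00562 and 0.00103). POLR1B had -0.26 ± 0.06 in knockout clones and -0.32 ± 0.06 in control clones (adjusted p = 0.00612 and 0.00258). The catalytic subunit POLR1A had 2218, 3033 and 3255 normalized counts (lowest, median and highest library) in knockout clones with JQ1, against 1892, 2212 and 2601 with DMSO. In control clones POLR1A had 3357, 3447 and 3683 with JQ1, against 2868, 3216 and 3412 with DMSO. Libraries of the treatments overlapped in both genotypes, and every control library lay above every knockout library of the same treatment. POLR1A rose in knockout clones by 0.33 ± 0.06 (adjusted p = 0.00198) and had 0.14 ± 0.06 in control clones (adjusted p = 0.0833), and the difference between these responses did not pass (0.19, adjusted p = 0.202).

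The snoRNP proteins had positive log2 fold changes in both genotypes, and 4 of the 6 (66.7%) passed as higher in each. Of all genes, 26.3% passed as higher in knockout clones and 25.3% in control clones. The box C/D scaffold protein NOP56 had 6485, 7373 and 8698 normalized counts in knockout clones with JQ1, against 4075, 4409 and 5445 with DMSO. In control clones NOP56 had 8872, 9495 and 9799 with JQ1, against 5608, 5684 and 6052 with DMSO. Every JQ1 library was above every DMSO library of its genotype, which held for 4 members as higher and 2 as lower in knockout clones (8.26% and 7.81% of all genes, 16.1% together) and for 4 as higher and 10 as lower in control clones (9.66% and 11.3% of all genes, 21% together). NOP56 rose by 0.72 ± 0.06 in knockout clones and 0.71 ± 0.06 in control clones (adjusted p = 2.87e-05 and 3.31e-05). Its paralog and partner NOP58 rose by 0.22 ± 0.06 in knockout clones and 0.27 ± 0.06 in control clones. NOLC1, the snoRNP chaperone Nopp140, rose by 0.28 ± 0.05 in knockout clones and 0.21 ± 0.05 in control clones. RRP9, which binds the U3 snoRNA, had 634.3, 657.7 and 812.3 normalized counts in knockout clones with JQ1, against 367.5, 496.3 and 612.2 with DMSO. It rose by 0.47 ± 0.09 in knockout clones (adjusted p = 0.00268) and had 0.23 ± 0.09 in control clones (adjusted p = 0.0644).

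Fibrillarin and DKC1 moved least among the snoRNP proteins. FBL had 3252, 4071 and 4384 normalized counts in knockout clones with JQ1, against 3480, 3586 and 4032 with DMSO. In control clones FBL had 5052, 5501 and 6064 with JQ1, against 4521, 4795 and 5504 with DMSO, so the treatments overlapped in both genotypes. FBL rose in control clones by 0.18 ± 0.06 (adjusted p = 0.027) and had 0.10 ± 0.06 in knockout clones (adjusted p = 0.17). DKC1 had 0.14 ± 0.06 in knockout clones and 0.02 ± 0.06 in control clones. Of 12 further snoRNP genes that are no members, 2 rose and 7 fell in knockout clones (16.7% and 58.3%). In control clones 1 rose and 7 fell (8.33% and 58.3%). Those that fell in both genotypes included GAR1, NHP2 and NOP10, the 3 proteins that join DKC1 in the H/ACA core. GAR1 had log2 fold changes of -0.90 in knockout clones and -0.92 in control clones, NHP2 had -0.57 in knockout clones and -0.40 in control clones, and NOP10 had -0.38 in knockout clones and -0.19 in control clones. The Cajal body protein COIL had -0.73 in knockout clones and -1.35 in control clones, and that difference passed (0.62, limma adjusted p = 0.0235).

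**Figure D4:**
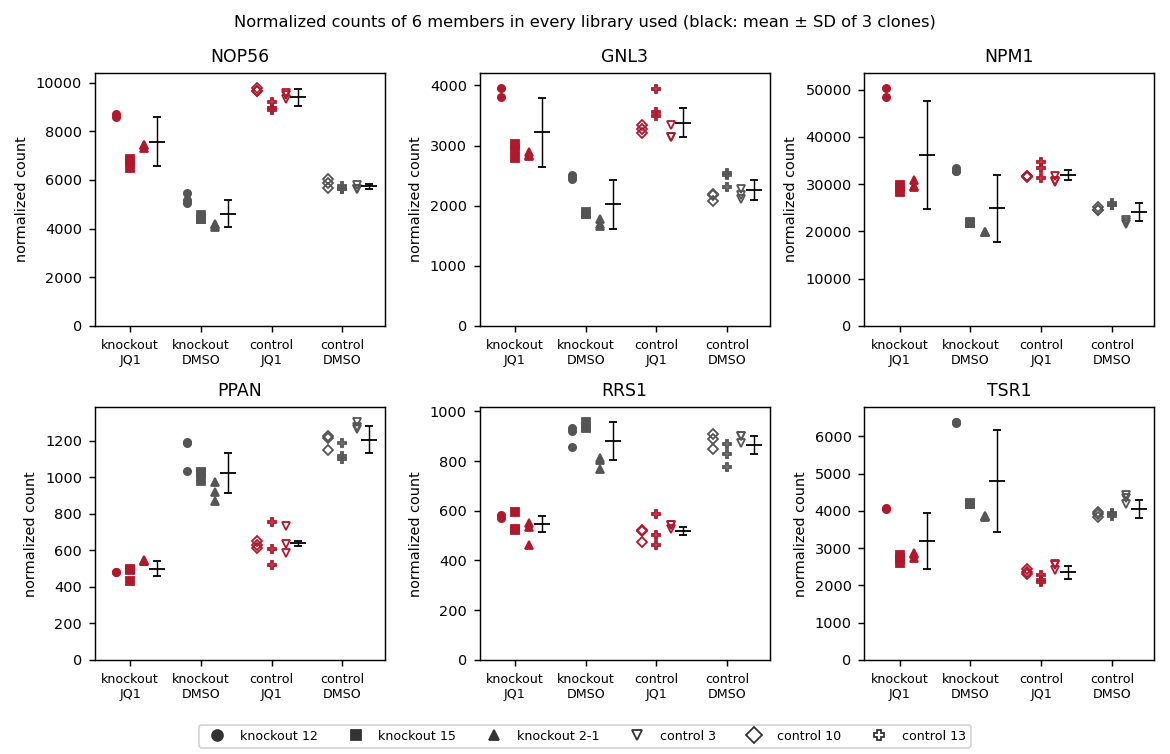
Normalized counts of NOP56, GNL3, NPM1, PPAN, RRS1 and TSR1 in every library used, by group (knockout left of control, JQ1 left of DMSO), with a marker shape per clone and the mean ± SD of 3 clones in black; each axis starts at 0. JQ1 libraries (red) of NOP56 and GNL3 lie above, and those of PPAN and RRS1 below, all DMSO libraries (grey) of their genotype.

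Among the abundant nucleolar proteins, nucleophosmin and nucleolin rose and MYBBP1A fell in both genotypes. NPM1 had 28343, 29701 and 50435 normalized counts in knockout clones with JQ1, against 19834, 21812 and 33431 with DMSO. In control clones NPM1 had 30438, 31673 and 34765 with JQ1, against 21629, 24510 and 26075 with DMSO. The control treatments did not overlap, whereas in knockout clones the DMSO libraries of clone 12 lay above the JQ1 libraries of clones 15 and 2-1. NPM1 rose by 0.53 ± 0.06 in knockout clones and 0.40 ± 0.06 in control clones (adjusted p = 0.000114 and 0.000531). NPM1 has processed pseudogenes of near-identical sequence, so its count is uncertain to the extent that reads were shared with them.

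NCL had 27070, 37415 and 45085 normalized counts in knockout clones with JQ1, against 20800, 31637 and 32219 with DMSO. In control clones NCL had 35541, 46969 and 65077 with JQ1, against 25915, 36311 and 49029 with DMSO. Clones differed more than treatments, so the libraries overlapped, yet NCL was on average higher with JQ1 within each of the 6 clones. Its rise was 0.36 ± 0.06 in knockout clones and 0.40 ± 0.06 in control clones (adjusted p = 0.000823 and 0.000532). MYBBP1A, a nucleolar regulator of RNA polymerase I and p53, had 1519, 2281 and 2554 normalized counts in knockout clones with JQ1, against 2282, 2559 and 4856 with DMSO. In control clones MYBBP1A had 1665, 1823 and 2671 with JQ1, against 2280, 2778 and 3194 with DMSO. Its libraries overlapped in both genotypes, and it fell by 0.56 on the log2 scale in knockout clones (adjusted p = 0.00419) and fell by 0.45 in control clones (adjusted p = 0.0132). The call in control clones was lost without control clone 3 (adjusted p = 0.0867). In knockout clones 12, 15 and 2-1 the log2 responses of MYBBP1A were -0.86, -0.67 and -0.14. In control clones 10, 13 and 3 they were -0.39, -0.36 and -0.58. The knockout fall of MYBBP1A thus drew least on clone 2-1, and its SE of 0.12 is 1 estimate over both genotypes. The RNA helicase DDX21 passed as lower in control clones (-0.27 ± 0.08) and had -0.17 ± 0.08 in knockout clones.

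Of the 14 small subunit factors, 2 rose and 4 fell in knockout clones (14.3% and 28.6%), where all genes had 26.3% and 30.2%. In control clones 2 rose and 6 fell (14.3% and 42.9%), where all genes had 25.3% and 27.4%. The risers were DDX10, an RNA helicase, and NOP14, a protein of the small subunit processome. DDX10 had 890.2, 1532 and 2047 normalized counts in knockout clones with JQ1, against 677.2, 995.4 and 1488 with DMSO. In control clones DDX10 had 1097, 1591 and 1782 with JQ1, against 1052, 1416 and 1466 with DMSO. Ranges overlapped in both genotypes, and DDX10 was on average higher with JQ1 within each clone, by 0.52 ± 0.06 in knockout clones and 0.19 ± 0.06 in control clones (adjusted p = 0.000231 and 0.0358). NOP14 rose by 0.33 ± 0.07 in knockout clones and 0.45 ± 0.07 in control clones (adjusted p = 0.00401 and 0.000815).

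The largest fall in the small subunit class was that of TSR1, a GTPase-like factor of late pre-40S particles. TSR1 had 2611, 2825 and 4092 normalized counts in knockout clones with JQ1, against 3839, 4191 and 6397 with DMSO. In control clones TSR1 had 2096, 2368 and 2572 with JQ1, against 3836, 3957 and 4422 with DMSO. The control treatments did not overlap, whereas JQ1 libraries of knockout clone 12 reached the DMSO range of clone 2-1. TSR1 fell by 0.58 on the log2 scale in knockout clones and fell by 0.79 in control clones (adjusted p = 7.44e-05 and 2.42e-05). NOB1, the nuclease that makes the final cut of 18S rRNA, WDR43, a processome protein, and BYSL, a pre-40S factor, also fell in both. Their log2 fold changes in knockout clones were -0.25 for NOB1, -0.24 for WDR43 and -0.20 for BYSL, against -0.50, -0.46 and -0.28 in control clones. IMP4 and UTP20, both of the processome, passed as lower in control clones (-0.26 and -0.23) and had -0.17 and -0.16 in knockout clones. In FPKM, IMP4 was not lower with JQ1 in knockout clones (mean 88.96, against 85.92 with DMSO). The control means of IMP4 were 84.97 FPKM with JQ1 and 89.71 FPKM with DMSO. Of 42 further small subunit factors, 13 rose and 15 fell in knockout clones (31%, 35.7%), against 6 and 16 in control clones (14.3%, 38.1%). Among these the atypical kinase RIOK1 rose by 0.97 in knockout clones and 0.37 in control clones, a difference of 0.60 that passed (adjusted p = 0.025), as did those of LTV1, NOP9 and NGDN.

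Large subunit factors held both the highest share of falls and several of the largest rises. In knockout clones 4 of the 18 rose and 8 fell (22.2% and 44.4%), where all genes had 26.3% and 30.2%. In control clones 4 rose and 11 fell (22.2% and 61.1%), where all genes had 25.3% and 27.4%. GNL3, the GTPase nucleostemin, had 2790, 2919 and 3965 normalized counts in knockout clones with JQ1, against 1658, 1868 and 2512 with DMSO. In control clones GNL3 had 3135, 3334 and 3936 with JQ1, against 2076, 2197 and 2535 with DMSO. The treatments did not overlap in either genotype, and GNL3 rose by 0.68 ± 0.05 in knockout clones and 0.58 ± 0.05 in control clones (adjusted p = 2.18e-05 and 4.14e-05). RRP1B, a nucleolar protein of pre-60S particles, had 2469, 2731 and 3678 normalized counts in knockout clones with JQ1, against 1597, 1943 and 2426 with DMSO. In control clones RRP1B had 2822, 3877 and 4516 with JQ1, against 2398, 2947 and 3458 with DMSO. Its treatments were separate in knockout clones and overlapped in control clones, with rises of 0.60 ± 0.05 in knockout clones and 0.35 ± 0.05 in control clones (adjusted p = 4.07e-05 and 0.000626). NOC3L, whose yeast homolog also serves in replication, rose by 0.40 ± 0.05 in knockout clones and 0.15 ± 0.05 in control clones. Its limma adjusted p was 0.000337 in knockout clones and 0.048, close to the threshold, in control clones.

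PPAN, the homolog of yeast Ssf1 in early pre-60S assembly, had the largest fall of all members. It had 430.4, 494.5 and 548.2 normalized counts in knockout clones with JQ1, against 868.7, 1027 and 1194 with DMSO. In control clones PPAN had 522, 632.4 and 756.7 with JQ1, against 1100, 1215 and 1306 with DMSO. No JQ1 library reached a DMSO library in either genotype, and PPAN fell by 1.03 on the log2 scale in knockout clones and fell by 0.92 in control clones (adjusted p = 4.41e-05 and 8.09e-05). PPAN overlaps the readthrough transcript PPAN-P2RY11 on the same strand, which had at most 37.43 normalized counts in knockout libraries with JQ1 and 81.03 with DMSO, and at most 11.67 and 45.72 in control libraries. P2RY11, which overlaps it on the same strand too, averaged 65.98 ± 41.2 normalized counts with JQ1 and 184.3 ± 75.9 with DMSO in knockout clones, and 72.36 ± 7.16 and 140.2 ± 25.5 in control clones (SD, n = 3 each), so it was lower with JQ1 as PPAN was. Whether reads were shared between these genes was not tested.

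RRS1, which in yeast helps to bring the 5S ribonucleoprotein into the pre-60S particle, had 461.1, 542.8 and 595.4 normalized counts in knockout clones with JQ1, against 767, 919.2 and 958.3 with DMSO. In control clones RRS1 had 462.1, 523.2 and 586 with JQ1, against 777.4, 873 and 908.9 with DMSO. It was lower in every JQ1 library than in every DMSO library of either genotype, with log2 fold changes of -0.68 ± 0.07 in knockout clones and -0.74 ± 0.07 in control clones (adjusted p = 6.42e-05 and 5.27e-05). MRTO4, which in yeast holds the place of the stalk protein P0, fell by 0.49 in knockout clones and fell by 0.46 in control clones. WDR74, a WD-repeat factor of pre-60S particles, had -0.34 ± 0.06 in knockout clones and -0.67 ± 0.06 in control clones, and the helicase DDX56 had -0.31 ± 0.05 in knockout clones and -0.52 ± 0.05 in control clones, all 4 past the threshold.

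BOP1, PES1 and WDR12 form the PeBoW complex of 60S maturation, and their transcripts moved apart. BOP1 had 1603, 1884 and 2346 normalized counts in knockout clones with JQ1, against 1219, 1478 and 1626 with DMSO. In control clones BOP1 had 2166, 2857 and 3596 with JQ1, against 1894, 2056 and 2542 with DMSO. The treatments overlapped in both genotypes, and BOP1 rose by 0.38 ± 0.11 in knockout clones and 0.41 ± 0.11 in control clones (adjusted p = 0.0179 and 0.0131). The call in control clones was lost without control clone 3, 10 or 13 or without replicate number 1 (adjusted p = 0.055 to 0.0658). The log2 responses of BOP1 were 0.10, 0.26 and 0.78 in knockout clones 12, 15 and 2-1. In control clones 10, 13 and 3 they were 0.39, 0.45 and 0.40. The knockout rise thus drew most on clone 2-1, and the SE of 0.11 is 1 estimate over both genotypes. WDR12 fell by 0.32 in knockout clones and fell by 0.49 in control clones (adjusted p = 0.000853 and 0.000112), and PES1 had -0.27 in knockout clones and -0.23 in control clones (adjusted p = 0.00898 and 0.0212). Of 45 further large subunit factors, 9 rose and 15 fell in knockout clones (20%, 33.3%), against 7 and 17 in control clones (15.6%, 37.8%).

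Of 18 further RNA polymerase I factors 4 rose and 6 fell in knockout clones (22.2% and 33.3%, where all genes had 26.3% and 30.2%), against 6 and 6 in control clones (33.3% each, where all genes had 25.3% and 27.4%). POLR1E and TAF1D rose in both genotypes (0.41 and 0.64 in knockout clones, 0.31 and 0.53 in control clones), and TAF1A and TAF1C, which with TAF1D belong to the selectivity factor SL1, fell in both (-0.56 and -0.54 in knockout clones, -0.43 and -0.34 in control clones). Of 15 noncoding snoRNA host genes, 6 rose and 3 fell in each genotype (40% and 20%). SNHG12 had 1.36 in knockout clones and 1.52 in control clones, and SNHG1 had 0.73 and 0.63. Among 21 genes of 5S rRNA and RNA polymerase III, 9 rose and 4 fell in knockout clones (42.9% and 19%). In control clones 5 rose and 4 fell (23.8% and 19%). Of 15 exosome and rRNA decay genes, 5 rose and 8 fell in knockout clones (33.3% and 53.3%). In control clones 4 rose and 7 fell (26.7% and 46.7%).

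The genes NOP56, NOP58, DKC1, NCL, WDR43, TSR1, PPAN and GNL3 have snoRNA genes within them in GENCODE 29, a grouping made after the values were seen. Of these 8 members, 4 rose and 3 fell with JQ1 in each genotype (50% and 37.5%). Of the 37 other members with a GENCODE entry, 9 rose and 11 fell in knockout clones (24.32% and 29.73%). In control clones 8 of those 37 rose and 17 fell (21.62% and 45.95%). Of 204 other coding genes with a snoRNA gene inside, 33.33% rose and 31.86% fell in knockout clones, against 35.78% and 23.53% in control clones. Of 12611 other coding genes without one, 28.94% rose and 31.62% fell in knockout clones, against 27.28% and 29.73% in control clones. Poly(A) libraries count the host transcript, not the snoRNA.

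The response to JQ1 was also compared between the genotypes directly. At an adjusted p under 0.05, 0 of the 46 members differed in response by limma, where 7.35% of all genes tested were called (3.76% higher and 3.58% lower). At an unadjusted p under 0.05 there were 9 members (27.2% of all genes), edgeR called 0 (6.27% of all genes) and DESeq2 called 3 (11.3% of all genes). The largest differences were those of WDR74 (0.33 ± 0.09, limma adjusted p = 0.0615) and DDX10 (0.33 ± 0.09, adjusted p = 0.0629), where a positive value is a response higher in knockout clones. For NOC3L the difference was 0.26 (adjusted p = 0.0744) and for RRP1B 0.25 (adjusted p = 0.0716). The response was above that of control clones for 30 members and below it for 16, with a median difference of 0.08, where all genes had 0.00.

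Between knockout and control clones with DMSO the members' levels differed little beyond the spread of the clones. At an adjusted p under 0.05, 0 of 46 members passed in limma with DMSO, where 12.5% of all genes were called (6.29% higher and 6.26% lower). At an unadjusted p under 0.05 there were 7 (27.9% of all genes), and edgeR called 0 (11.6% of all genes). DESeq2 called 5, of which 1 was higher and 4 lower, where it called 20.9% of all genes (11.2% higher and 9.72% lower). The members' median log2 fold change was -0.12, that of all genes 0.01, and 27 members were lower in knockout clones and 19 higher. The knockout clones differed among themselves: the members' median difference from the mean of the control clones was 0.13 in clone 12, -0.19 in clone 15 and -0.29 in clone 2-1. For 1 member (NOB1) every knockout library was above, and for 5 (BOP1, DDX18, FBL, NOP56 and POLR1A) below, every control library, where 20.7% of all genes did not overlap (10.2% higher and 10.5% lower).

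BOP1 averaged 1459 ± 153 normalized counts in knockout clones and 2157 ± 265 in control clones with DMSO (SD, n = 3 each). Its log2 fold change was -0.56 ± 0.15 (SE, limma adjusted p = 0.0551). RRP1B averaged 1990 ± 378 in knockout clones and 2936 ± 508 in control clones, with -0.56 ± 0.20 and a wider spread (adjusted p = 0.115). For POLR1A the means were 2233 ± 292 in knockout clones and 3160 ± 179 in control clones, with -0.51 ± 0.14 (adjusted p = 0.0608). FBL averaged 3676 ± 184 in knockout clones and 4947 ± 381 in control clones, with -0.43 ± 0.12 (adjusted p = 0.0629). UTP20 had -0.45 ± 0.24 and NCL -0.37 ± 0.26 (adjusted p = 0.274 and 0.417), and NPM1 had 0.01 ± 0.21. These misses do not show that the levels were equal. MYC, at 827 ± 307 normalized counts in knockout clones and 1911 ± 914 in control clones with DMSO, had -1.12 ± 0.47 (adjusted p = 0.176).

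With JQ1, 1 of the 46 members passed between knockout and control clones, where 11.2% of all genes were called (5.66% higher and 5.57% lower), and 5 members had an unadjusted p under 0.05 (26.4% of all genes). NOB1 had 688.6, 765.5 and 886.3 normalized counts in knockout clones with JQ1, against 430.7, 498.6 and 521.7 in control clones with JQ1. The genotypes did not overlap, and NOB1 was higher in knockout clones by 0.63 ± 0.15 (limma adjusted p = 0.0406). With DMSO it had 810.3, 881.3 and 984.4 in knockout clones, against 624.6, 699.5 and 796.5 in control clones, again without overlap (0.39 ± 0.13, adjusted p = 0.114). The call with JQ1 was lost without clone 15, 2-1, 3, 10 or 13 or replicate number 1, at adjusted p from 0.0532 to 0.15. With JQ1 the libraries of NOC3L and TSR1 were also higher and those of FBL, NOP56 and POLR1A lower in knockout clones without overlap, where 17.8% of all genes did not overlap (9.41% higher and 8.43% lower). BOP1 had -0.60 ± 0.16 and FBL -0.51 ± 0.14 (adjusted p = 0.059 and 0.0689). The members' median was -0.06, against 0.00 for all genes.

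**Figure D5:**
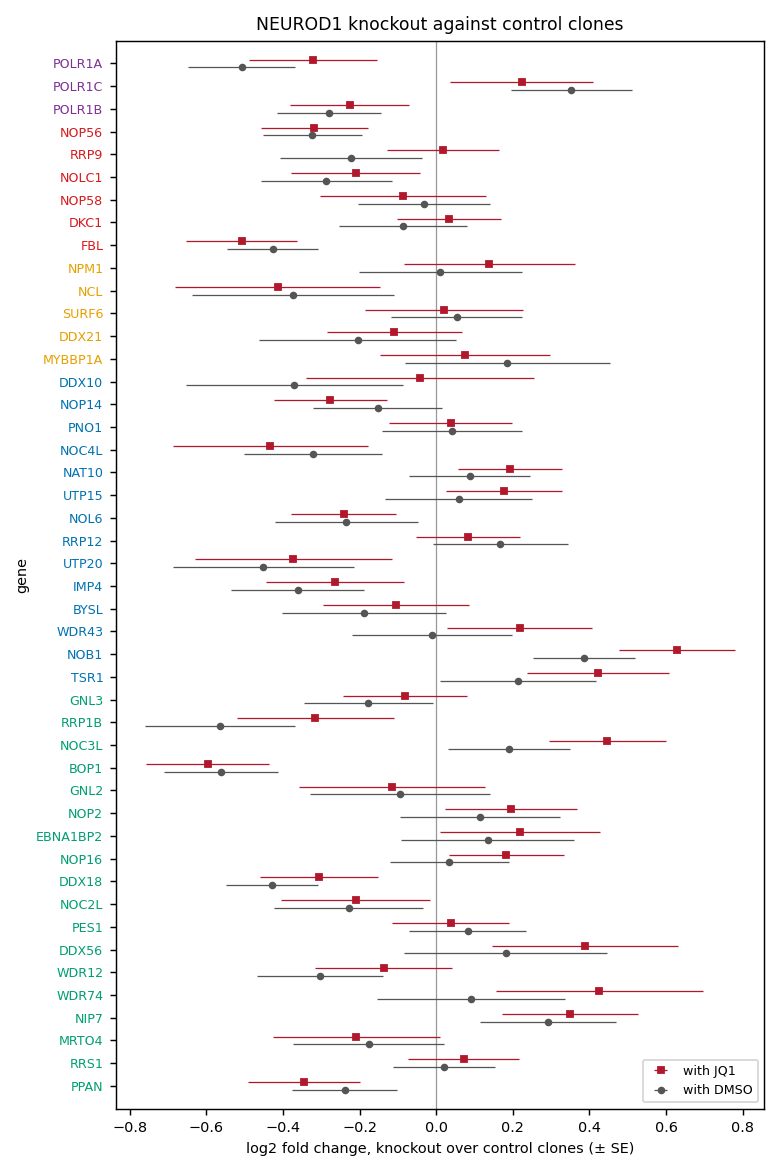
Log2 fold change of knockout over control clones for each of the 46 members (rows, coloured by role), with JQ1 (red squares) and with DMSO (grey circles), and standard errors from limma over 3 against 3 clones. Values run from -0.60 for BOP1 with JQ1 to 0.63 for NOB1 with JQ1, the 1 value past the threshold.

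Promoters of the members were searched for E-boxes and the ETS core. RefSeq promoters of GRCh38.p14, 250 bases before to 50 after the start site, were found for 39 of the 46 members. CACGTG, which reads the same on both strands, occurred in 18 of these 39 (46.15%), against 7.43% of all 27305 promoters and 10.09% of the 10082 promoters of genes tested here. The members were chosen as MYC-driven genes, so a high share of the MYC E-box may come from that choice. In 16 members (41.03%) CACGTG started between 20 bases before and 40 after the start site, against 1.53% of all promoters. For this window the share among promoters of genes tested was not taken. Members with CACGTG moved in both directions with JQ1, as all genes did: of 18, 3 rose and 5 fell in knockout clones, against 3 and 7 in control clones. Of the 21 without it, 7 rose and 8 fell in knockout clones, against 6 and 11 in control clones. Of all genes tested, 26.3% rose and 30.2% fell in knockout clones, against 25.3% and 27.4% in control clones. CAGATG and CAGCTG, the E-boxes of NEUROD1, occurred on either strand in 7.69% and 23.08% of the members' promoters, against 14.77% and 17.74% of all promoters and 9.22% and 16.98% of those of genes tested. The ETS core CCGGAAG occurred in 33.33%, against 10.67% of all promoters and 18.72% of those of genes tested. A match is a description of the letters and not a bound site.

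The following stretches run from 100 bases before to 30 after the start site of the 3 members with CACGTG that rose with JQ1 in knockout clones, NOP14 (chr4:2963377-2963506, minus strand), RRP9 (chr3:51941875-51942004, minus) and NOC3L (chr10:94362910-94363039, minus). They are followed by 3 of the 5 members with CACGTG that fell in knockout clones, those whose E-box lies wholly within this stretch, MRTO4 (chr1:19251705-19251834, plus), WDR43 (chr2:28894567-28894696, plus) and PES1 (chr22:30591881-30592010, minus). They are shown 5′ to 3′ on the gene's strand with the E-box in capitals, to show its place at the start site.
NOP14: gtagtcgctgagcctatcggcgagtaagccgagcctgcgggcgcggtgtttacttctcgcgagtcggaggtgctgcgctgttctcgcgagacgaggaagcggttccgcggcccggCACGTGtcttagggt
RRP9: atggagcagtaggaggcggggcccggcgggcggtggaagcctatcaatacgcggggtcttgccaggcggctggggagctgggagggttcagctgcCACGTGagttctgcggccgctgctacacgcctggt
NOC3L: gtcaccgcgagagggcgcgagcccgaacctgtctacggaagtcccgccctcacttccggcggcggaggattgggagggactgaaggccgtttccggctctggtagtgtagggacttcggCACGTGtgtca
MRTO4: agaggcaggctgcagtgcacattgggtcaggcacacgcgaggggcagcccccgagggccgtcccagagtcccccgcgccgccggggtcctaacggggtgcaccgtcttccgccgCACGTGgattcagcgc
WDR43: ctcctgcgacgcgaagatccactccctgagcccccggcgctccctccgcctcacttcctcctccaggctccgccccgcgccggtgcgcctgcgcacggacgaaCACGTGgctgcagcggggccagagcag
PES1: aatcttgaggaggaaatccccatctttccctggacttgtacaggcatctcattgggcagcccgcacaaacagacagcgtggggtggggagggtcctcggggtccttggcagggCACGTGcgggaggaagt

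The E-box began at base 16 of NOP14, 5 bases before the start of RRP9 and at base 20 of NOC3L, against base 15 of MRTO4, base 4 of WDR43 and base 14 of PES1. In BYSL and MYBBP1A, the fallers not shown, it began further downstream, at bases 29 and 28.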

How the data were processed

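Poly(A) RNA libraries were made with a stranded kit, per the labels' protocols, and processed with cutadapt, STAR and RSEM on hg19, per the submitters' processing notes. Versions and the use of strand in counting are not stated. The authors deposited normalized counts (a signal, each count over its library's size factor) and FPKM. Whole reads recovered from the deposited signal were whole for 100% of values within 1e-06. The table being normalized, limma 3.58.1 (R 4.3.3, expression trend) was run on log2(normalized count + 1) of clone means for genotype, and of within-clone JQ1 minus DMSO differences for JQ1. Tested genes had 10 or more normalized counts in 9 or more libraries, with Benjamini-Hochberg adjustment over all 15711 and a two-sided threshold of 0.05. Such fold changes understate those of low genes. For JQ1 the spread of a gene was estimated over the clones of both genotypes together, so its SE is the same in each genotype. With the spread of the own genotype instead, 45.7% of all genes were called in knockout clones and 59.4% in control clones. The main fit called 56.5% in knockout clones and 52.7% in control clones. Libraries of a clone share its genome and were averaged; 34 pairs of replicate libraries differed beyond sampling noise (chi-square over degrees of freedom of 2.16 to 13). Where 3 values of a group are given, they are the lowest, median and highest of its 8 or 9 libraries.

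Values are given for NCL, NPM1, FBL, NOP56, POLR1A, for the member of largest change per role and comparison, and for the 5 largest rises and falls of each; others serve to complete a complex or class. Members and lists were chosen with earlier results of these data known. Promoters are RefSeq's on GRCh38.p14; 45 of 46 members matched GENCODE 29 by identifier. The tests were tried on simulated counts. Alternatives included DESeq2 1.42.0 and edgeR 4.0.16, run on the whole reads of each clone and treatment added up; edgeR called 1828 genes for genotype with DMSO and 1573 with JQ1, 8867 for JQ1 in knockout clones, 8331 in control clones and 985 between these responses. Plots were made in Python 3.11.15 (matplotlib 3.10.9).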

Additional observations from a re-analysis of the deposited data

Results flagged for a closer look

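Over 184 sets of libraries (46 members in 4 groups), 2 held a library far from the others. Chance flags about 1 in 20 such sets if libraries are independent, which libraries of a clone are not. RRP9 reached 812.3 normalized counts in the third JQ1 library of knockout clone 12, above the next library at 706.5 and the lowest at 634.3. PES1 fell to 2437 normalized counts in the second JQ1 library of control clone 13, below the next at 2711 and the highest at 2924. The library of knockout clone 12 with JQ1 that was left out held signal of other tissues, with 68041 normalized counts over lung epithelium markers and 17100 over blood markers, against at most 189.2 and 48.22 in the libraries used.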

How the results depend on the processing

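Of 858 alternative values for 37 pairs of named gene and comparison, 792 kept direction and side of the threshold, 38 came to pass it, 27 no longer passed it and 1 turned round: the NPM1 difference in response was -0.0012 with the library left out put back. Between genotypes with DMSO, 2 members passed with equal library totals, 1 with TMM, 1 with FPKM (12.5%, 12.7%, 11.6% of all genes). DESeq2 called 5 members (20.9% of all genes). With a clone or replicate number left out, 0 to 1 passed (5.8% to 12.8% of all genes). Between genotypes with JQ1, 2 passed with FPKM, 2 with the library put back, 0 without the expression trend (10.2%, 12.1%, 8.72% of all genes). DESeq2 called 3 members (18.5% of all genes). With a clone or replicate number left out, 0 to 2 passed (4.65% to 10.8% of all genes). Without pairing treatments by clone, JQ1 called 1 member in knockout clones and 11 in control clones (2.82% and 20% of all genes). Leaving out clones or replicate numbers gave 26 to 33 and 22 to 38 members. Of all genes these omissions called 47.4% to 54% in knockout clones and 38.4% to 56.9% in control clones. The difference in response called 3 members with DESeq2 (11.3% of all genes) and 0 to 0 in the omissions (0.0764% to 10.4% of all genes). The members' median with JQ1 in control clones was -0.18 with equal totals and -0.10 with TMM. Over the omissions the medians ranged from -0.26 to -0.05 for genotype with DMSO, -0.08 to 0.00 for genotype with JQ1, -0.15 to 0.03 and -0.12 to -0.10 for JQ1 in knockout and control clones, and 0.01 to 0.14 for the difference. Replicate numbers did not pair libraries (17 correlations of deviations, -0.221 to 0.115). With single libraries as replicates, which treats libraries of a clone as independent, genotype called 18 members with DMSO and 19 with JQ1 and the difference 16 without a block, and 16, 18 and 14 with the replicate block; of all genes these fits called 49.7%, 46.5% and 40.3%, and 47.2%, 44.1% and 34.4% with the block. The cause of these shifts was not tested.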
